A study of Rattus norvegicus and Mus musculus with 12 samples.

Results

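The enzymes that make cholesterol and fatty acids, their regulators, and the CH25H-CYP7B1-RORA oxysterol axis were followed in rat and mouse chondrocytes stimulated with interleukin-1β (IL-1β), an inflammatory cytokine. A list of 37 gene names was matched to the gene names of the rat and mouse tables. The mouse table of 28603 genes held 37 of them and the rat table of 19687 genes held 36, without a row named Scd1. The 12 RNA-seq libraries came from passage 1 articular chondrocytes of newborn animals, cultured in medium with fetal bovine serum. The rat control (RC) and rat model (RM) groups were labelled SD, that is, Sprague-Dawley. The mouse control (MC) and mouse model (MM) groups carried strain labels from C57BL/6 to C57BL/9, while the methods of the study name C57BL/6 alone. Each group had 3 libraries, which the methods call independent, and no label ties a library to an animal. The RM and MM groups received IL-1β at 20 ng/ml for 24 h, and the RC and MC groups did not. The model is thus a culture of cells from newborn joints under a single cytokine, without the matrix or the other tissues of a joint.

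Cells make cholesterol from acetyl-CoA through mevalonate, isoprenoid units, squalene and lanosterol. Most enzymes of this route are transcribed under SREBP-2, the product of Srebf2, and fatty acid synthesis is largely under SREBP-1, the product of Srebf1. When sterols are plentiful, the INSIG proteins retain the SREBP-SCAP complex in the endoplasmic reticulum and the target genes are transcribed less. CH25H makes 25-hydroxycholesterol, an oxysterol that binds INSIG and also activates the liver X receptors (LXRs). CYP7B1 hydroxylates this and other oxysterols further, and RORα, the product of Rora, is a nuclear receptor that binds sterols. In cartilage this axis is known for its link to matrix breakdown in osteoarthritis.

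In the mouse, the route to cholesterol went down nearly as a whole and the oxysterol axis went up. Of the 18 cholesterol enzymes, 16 fell in the MM group, 0 rose, and Sqle and Hsd17b7 were not called, whereas Ch25h, Cyp7b1 and Rora all rose. Over all mouse genes tested, 37.6% were called lower and 37.4% higher. In the rat, of the same enzymes 6 rose, by at most 0.59 on the log2 scale, Dhcr7 fell and 11 were not called. Only 3 were called higher without RC replicate 2, RC replicate 3, RM replicate 2 or RM replicate 3. Over all rat genes tested, 18.3% were called higher and 16.8% lower. Of the axis, Cyp7b1 rose in the RM group, Rora was not called, and Ch25h had too few reads to pass the filter on low counts. A call here is an adjusted P under 0.05 in edgeR's quasi-likelihood test, after Benjamini-Hochberg adjustment across every gene tested in that species.

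Over all members, 34 of 36 rat rows passed the filter on low counts, and 8 were called higher and 5 lower in the RM group. Of the 13303 rat genes tested, 18.3% were called higher and 16.8% lower, so neither share of the members stood far from that of all genes. With upper quartile scaling the rat split became 5 higher and 8 lower, and that of all genes moved from 2429 and 2238 to 2052 and 2855. All 37 mouse members were tested, and 9 were higher and 24 lower in the MM group, beside 37.4% and 37.6% of the 14774 mouse genes tested. The share of members that were lower was thus above that of all genes, and the share that were higher below it. The criteria for differentially expressed genes (DEGs) in the methods of the study were read here as an unadjusted P below 0.05, a log2 fold change of 0.85 or more either way and an FPKM of 1 or more in some library. They took 1 rat member was higher and 1 lower. These criteria took 4.64% and 3.9% of rat genes. In mouse they took 6 members higher and 18 lower, beside 12.6% and 13% of mouse genes.

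The difference between the log2 fold changes, mouse minus rat, was tested for the 34 members that passed the filter in both species. It was negative and called for 24 members and positive and called for 8, beside 34.2% and 29.7% of the 10912 shared genes tested. All 18 cholesterol enzymes were among the 24, though Hsd17b7 (-0.28, adjusted P = 0.031) was lost in DESeq2, with a replicate block and without RC replicate 2 or 3, RM replicate 2, MC replicate 1 or 2 or MM replicate 1 (adjusted P up to 0.11). Their median log2 fold change was 0.04 in rat and -1.70 in mouse, and the median difference was -1.75, with medians over all genes of 0.01, -0.02 and -0.07.

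Total counts were 20169272 to 25903459 in the rat libraries and 16841580 to 20048322 in the mouse libraries. Libraries of a mouse group differed by 1.90 to 2.48 times sampling noise (chi-square per degree of freedom) and those of a rat group by 6.07 to 27.8 times, so a change of a given size reached the threshold more readily in mouse. Fold changes rest on TMM scaling. With library size alone, as in the deposited FPKM (counts scaled by gene length and library total), the median of all mouse genes was -0.29, and 3699 mouse genes were called higher and 8074 lower in place of 5525 and 5557. The members then split into 6 higher and 30 lower in mouse. Chondrocyte markers were present in every library, and their summed FPKM went from 3795-4444 in RC down to 1318-1374 in RM, and from 2017-2058 in MC down to 169-182 in MM. Of 5 adipocyte markers, the sum fell from 12.6-13.6 to 5.92-7.00 in mouse, where Adipoq and Plin1 were called lower, and rose from 4.50-6.36 to 44.3-69.2 in rat, nearly all of it Fabp4, with Cidec and Lep at 0 in the RC group. Of 8 macrophage and leukocyte markers the sum rose from 5.69-6.95 to 32.2-33.6 in mouse, most of it Cd14, with Itgam at 0. In rat it rose from 17.3-20.9 to 30.6-34.9. Cd14 and Cd68 were called higher in both species. Csf1r was called higher in mouse (log2 fold change 0.70, adjusted P = 0.0086) and lower in rat (-1.20, adjusted P = 0.0027). Tyrobp and Fcer1g were not called in rat and did not pass the filter in mouse. Ptprc and Adgre1 passed it in neither species. Of 6 fibroblast markers, Dcn rose from a mean of 22.9 to 601 FPKM in mouse and from 5.91 to 28.9 in rat. Lum rose from 33.3 to 167 and from 138 to 565. Col1a1 was called lower in both species (1887 to 558 FPKM in mouse, 2164 to 1176 in rat). Thy1 was called lower in mouse (12.5 to 3.48) and Col3a1 in rat (917 to 469). Col3a1 and Pdgfra were called higher in mouse, though their mean FPKM was slightly lower. Thy1 and Pdgfra were not called in rat. The sum of all 6 was lower in both model groups. The sum of 6 muscle markers was 3.81-4.35 in MC and 0.390-0.816 in MM, where Des and Acta1 were called lower, and 3.19-4.18 in RC and 2.67-3.07 in RM. The part of these cell markers in the results was not tested. In bulk RNA, fewer cells of a type and less RNA per cell cannot be told apart.

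Rat promoters are shown for 4 cholesterol enzymes whose calls ran in opposite directions in the 2 species, and for Ch25h from the axis. Fdft1, also called in opposite directions, had no promoter in the set used. The 4 enzymes hold a short motif there, and Ch25h, like most rat promoters, does not. The sequences are RefSeq's, from rat build GRCr8, and not from the Rnor_6.0 build behind the counts. Each runs 5′ to 3′ on the strand of its gene over the 200 bases before the start. Capitals mark CCAAT, the box bound by NF-Y, on either strand. Hmgcs1 is at chr2:53382104-53382303 (plus strand), Idi1 at chr17:66547525-66547724 (minus), Msmo1 at chr16:29746913-29747112 (plus), Ebp at chrX:16971262-16971461 (plus) and Ch25h at chr1:241429367-241429566 (minus).
Hmgcs1: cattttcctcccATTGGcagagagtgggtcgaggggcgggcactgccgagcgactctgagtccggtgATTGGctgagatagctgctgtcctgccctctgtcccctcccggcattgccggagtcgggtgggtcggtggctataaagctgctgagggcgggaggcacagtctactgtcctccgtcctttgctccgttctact
Idi1: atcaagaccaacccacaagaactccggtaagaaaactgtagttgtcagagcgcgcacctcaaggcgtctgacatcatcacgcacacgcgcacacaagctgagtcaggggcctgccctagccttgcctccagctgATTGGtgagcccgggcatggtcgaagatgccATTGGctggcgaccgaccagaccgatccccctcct
Msmo1: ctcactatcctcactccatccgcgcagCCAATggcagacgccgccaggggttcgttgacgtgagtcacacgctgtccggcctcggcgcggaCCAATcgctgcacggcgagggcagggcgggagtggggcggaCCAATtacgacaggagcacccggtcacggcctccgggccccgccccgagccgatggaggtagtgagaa
Ebp: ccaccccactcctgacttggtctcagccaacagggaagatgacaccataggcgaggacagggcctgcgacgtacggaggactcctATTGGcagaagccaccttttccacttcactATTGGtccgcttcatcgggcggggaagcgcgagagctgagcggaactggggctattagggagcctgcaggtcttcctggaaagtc
Ch25h: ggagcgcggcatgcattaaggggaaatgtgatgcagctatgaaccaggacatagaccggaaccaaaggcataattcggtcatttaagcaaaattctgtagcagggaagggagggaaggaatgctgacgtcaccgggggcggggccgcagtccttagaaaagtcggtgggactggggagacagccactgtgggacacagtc

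Of the members, 27 had a promoter in this set, Srebf1 with a second start, which gave 28 windows from 250 bases before to 50 after the start. CCAAT on either strand was present in 12 of 15 windows of cholesterol enzymes (80.0%), in 5 of 6 of SREBP control genes (83.3%) and in 0 of 5 of the LXR and axis genes together, beside 37.5% of all 33469 rat promoters. The cholesterol enzymes Acat2, Cyp51 and Dhcr7, which fell in mouse, had no CCAAT in their windows, and Insig2, which rose in mouse, had it. The E-box CACGTG was found in 4 of the 28 (14.3%), beside 6.42% of all. A sterol regulatory element spelled TCACNCCAC was in none of the 28 and in 1.12% of all promoters. The ROR binding motif TAGGTCA was in none of the 28 and in 2.63% of all. These are matches of letters in 1 window and no measure of binding.

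Ch25h, the oxysterol-making hydroxylase, showed the widest change among the members in mouse. It has Ensembl identifier ENSMUSG00000050370 and lies on the minus strand at chr19:34473778-34475164 of GRCm38. Its FPKM was 0.433, 0.308 and 0.248 in the MC group and 32.8, 33.1 and 33.2 in the MM group. The MM libraries were nearly equal and far above every MC library. The log2 fold change was 6.91 (SE 0.14, adjusted P = 1.38e-48), from 23 counts in the MC group against 2547 in the MM group. In rat, the gene gave 1, 0 and 0 counts in the RC libraries and 12, 10 and 3 in the RM libraries, so the groups did not overlap but every library was low. Scaled by library totals and TMM factors, the RM to RC ratio was 24.5 with an exact 95% interval of 4.0 to 1004. That interval covers counting error only. The gene did not pass the filter and was left out of the rat fit used for calls. The fit with no filter included it, but its result is not given here. In mouse, 11.5% of its exon length overlaps Gm26902, and whether the counting used strand is not given in the sources used here.

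Cyp7b1, the next enzyme along the axis, rose in both species. In rat its FPKM was 3.06, 2.42 and 2.84 in the RC group and 6.62, 5.53 and 6.56 in the RM group, without overlap. The rat log2 fold change was 1.15 (SE 0.13, adjusted P = 6.75e-05), and it was the sole member past the DEG criteria upwards in rat. In mouse, at chr3:18071950-18243338, FPKM was 1.29, 1.75 and 1.16 in the MC group and 3.96, 4.58 and 4.49 in the MM group. This gave a log2 fold change of 1.91 (SE 0.15, adjusted P = 1.6e-17). The difference between the species was 0.73 (SE 0.21, adjusted P = 0.0054), and with library size alone it was 0.47 with an adjusted P of 0.054 by the same test.

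Rora, the receptor gene, rose in mouse. Its FPKM was 2.79, 2.59 and 2.85 in the MC group and 12.1, 11.7 and 11.1 in the MM group, at chr9:68653786-69388246. Every MM library lay well above the MC libraries, and the log2 fold change was 2.36 (SE 0.047, adjusted P = 3.25e-49). In rat, FPKM was 2.14, 1.71 and 2.33 in the RC group and 2.61, 2.33 and 2.64 in the RM group. The rat groups met at 2.33, and the log2 fold change of 0.28 (SE 0.18) was not called (adjusted P = 0.25). The difference of 2.04 (SE 0.14) was called (adjusted P = 1.86e-09).

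**Figure D1:**
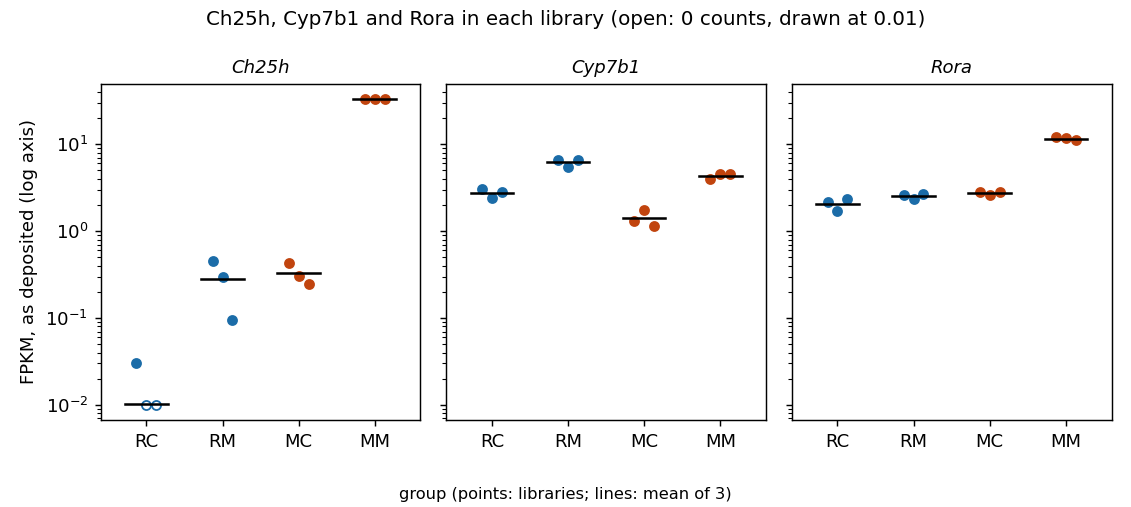
FPKM of Ch25h, Cyp7b1 and Rora on a shared log axis for each library of RC, RM, MC and MM, with lines at the mean of 3 libraries and open points for 0 counts drawn at 0.01. Ch25h spans 0.248-0.433 in MC and 32.8-33.2 in MM, Cyp7b1 is higher in both model groups, and Rora separates fully in mouse.

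The 7 enzymes from acetyl-CoA to farnesyl diphosphate, the mevalonate and isoprenoid branch, all fell in mouse, by 1.39 (Pmvk) to 2.48 (Hmgcs1) on the log2 scale. In rat, Hmgcs1 and Idi1 rose and the other 5 were not called, with values from -0.16 (Mvd) to 0.04 (Acat2). Over all genes tested, 37.6% were called lower in mouse and 18.3% higher in rat. Hmgcs1, which makes HMG-CoA, had 36.1, 37.3 and 38.1 FPKM in the MC group and 5.52, 5.36 and 5.54 in the MM group. The MM libraries thus lay close together at a level 5.59-fold lower (log2 fold change -2.48, SE 0.047, adjusted P = 2.83e-50). In rat its FPKM was 91.0, 70.1 and 80.6 in the RC group and 92.8, 109 and 96.7 in the RM group. RC replicate 1 came close to the lowest RM library, and the log2 fold change was 0.29 (SE 0.10, adjusted P = 0.046). This call was lost without RC replicate 2 or 3 or without any 1 RM replicate, with adjusted P up to 0.19. The difference between the species was -2.81 (SE 0.12, adjusted P = 2.68e-12).

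Mvk, mevalonate kinase, had 23.5, 23.5 and 26.0 FPKM in the MC group and 5.95, 6.17 and 5.58 in the MM group. This gave a log2 fold change of -1.76 (SE 0.065, adjusted P = 4.19e-34), without overlap. In rat it had 12.002, 12.9 and 12.4 FPKM in the RC group and 13.5, 11.3 and 12.2 in the RM group, which overlapped (log2 fold change -0.03, SE 0.10, adjusted P = 0.86).

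Idi1, which interconverts the isoprenoid units, had 12.7, 12.99 and 15.2 FPKM in the MC group and 2.48, 2.46 and 2.73 in the MM group. The fall was 2.14 on the log2 scale (SE 0.082, adjusted P = 2.29e-33). Rat libraries had 29.4, 16.2 and 21.4 FPKM in the RC group and 30.3, 38.0 and 33.5 in the RM group. The RC libraries were widely spread, and the log2 fold change was 0.59 (SE 0.18, adjusted P = 0.027). The rat call was lost without RC replicate 2 or 3 or without RM replicate 2 or 3, with adjusted P up to 0.097, and with DESeq2 (adjusted P = 0.066).

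Fdps, farnesyl diphosphate synthase, stood apart by its level. Its FPKM spanned 1.82 to 2.18 over MC libraries and 0.177 to 0.401 over MM libraries, against 118 to 141 for RC and 120 to 127 for RM. The 2 tables were normalized separately, so the levels are set side by side without a test. In mouse, 26.2% of the 50-base windows of Fdps occur in other genes and 26.7% of its exon length overlaps Gm43738. Shared windows were also frequent in Acat2 (39.1%), the fatty acid enzyme gene Acaca (30.4%), Fdft1 (26.5%) and Idi1 (25.3%). The mouse values of these genes and of Fdps are uncertain, by an amount that the shares do not give. Shared sequence in rat was not analysed here.

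Of the 11 enzymes from squalene to cholesterol, 9 fell in mouse, by 0.84 (Sc5d) to 2.05 (Cyp51), and 0 rose. Sqle, squalene epoxidase, and Hsd17b7 were not called, both with a log2 fold change of -0.06. Their FPKM of 22.2 to 23.1 and 8.96 to 9.36 in MM lay below 28.6 to 29.0 and 11.2 to 11.9 in MC. With library size alone both were called lower, at -0.34 each. In rat, Fdft1, Sqle, Msmo1 and Ebp rose, Dhcr7 fell and 6 were not called. All genes tested gave 37.6% lower in mouse, and 18.3% higher and 16.8% lower in rat.

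Cyp51, lanosterol demethylase, had 46.0, 46.0 and 47.8 FPKM in the MC group and 8.97, 8.66 and 10.3 in the MM group. That was a log2 fold change of -2.05 (SE 0.045, adjusted P = 1.16e-46). In rat it had 121, 110 and 115 FPKM in the RC group and 105, 123 and 113 in the RM group. The rat groups overlapped, with a log2 fold change of -0.04 (SE 0.075, adjusted P = 0.73).

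Fdft1, squalene synthase, moved in opposite directions. Its FPKM was 38.0, 39.5 and 39.1 in the RC group and 49.2, 50.6 and 50.4 in the RM group. In rat the libraries of each group were close and the groups well apart (log2 fold change 0.35, SE 0.064, adjusted P = 0.0018). In mouse it had 26.4, 26.8 and 26.5 FPKM in the MC group and 5.32, 6.37 and 5.66 in the MM group (log2 fold change -1.92, SE 0.053, adjusted P = 4.45e-41). In mouse its exons overlap those of Ctsb over 18.3% of their length. The difference was -2.31 (SE 0.084, adjusted P = 4.51e-13), the smallest P among the members.

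Msmo1, the sterol C4 methyl oxidase, had 87.6, 78.5 and 80.5 FPKM in the RC group and 103, 115 and 107 in the RM group. The rise in rat was 0.38 on the log2 scale (SE 0.074, adjusted P = 0.0026). In mouse it had 20.7, 20.8 and 21.9 FPKM in the MC group and 7.24, 7.48 and 7.32 in the MM group. These did not overlap either and ran the other way (log2 fold change -1.25, SE 0.044, adjusted P = 4.27e-35).

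Ebp, the sterol isomerase, had 16.2, 17.1 and 17.6 FPKM in the RC group and 26.2, 24.4 and 23.7 in the RM group. The log2 fold change of 0.53 (SE 0.084, adjusted P = 0.00077) had the smallest adjusted P of the cholesterol enzymes in rat. In mouse it had 13.3, 13.006 and 13.8 FPKM in the MC group and 4.99, 4.89 and 6.07 in the MM group, a log2 fold change of -1.06 (SE 0.084, adjusted P = 6.54e-18). The rat rises of Fdft1, Msmo1 and Ebp were called in each fit made without 1 library. The rise of Sqle (0.25) was lost without RC replicate 2 or 3, without RM replicate 2 or 3 and with upper quartile scaling. The fall of Dhcr7 (-0.27) was lost without RC replicate 2 or 3 or without RM replicate 1 or 2, with library size alone (adjusted P = 0.055) and in both limma fits (adjusted P = 0.063 and 0.061).

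**Figure D2:**
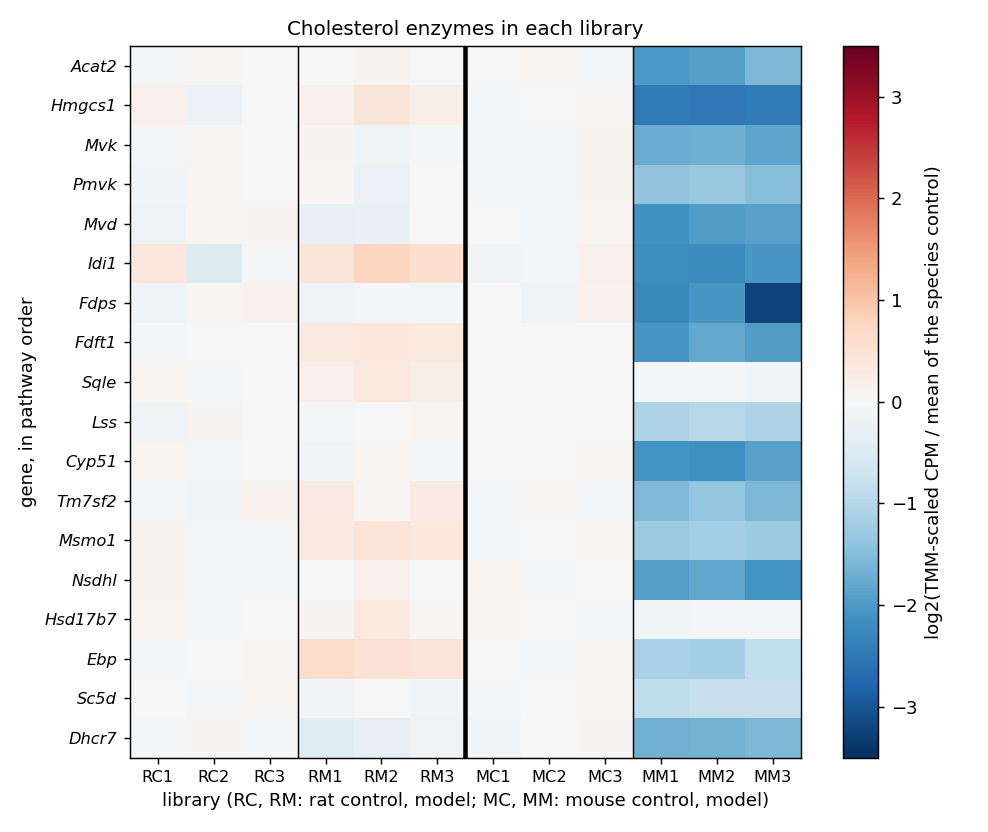
Heat map of the 18 cholesterol enzymes in pathway order in each of the 12 libraries, coloured by the log2 ratio of TMM-scaled CPM to the mean of the control group of the species. The MM libraries are blue in every row but Sqle and Hsd17b7, and the RM libraries are near white, pale red (most in Idi1 and Ebp) or pale blue (Dhcr7).

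Among the genes that control SREBP and carry sterols, the transcripts of both SREBPs and of INSIG changed by different amounts in the 2 species. In mouse, Srebf1, Srebf2, Insig1 and the sterol carrier Stard4 fell, Insig2 rose and Scap, the SREBP escort, was not called. In rat, Srebf1 and Insig1 fell and the other 4 were not called.

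Insig2 had 14.2, 15.1 and 15.7 FPKM in the MC group and 55.0, 57.4 and 57.6 in the MM group. The MM libraries were all higher, with a log2 fold change of 2.20 (SE 0.041, adjusted P = 2.58e-50). Rat values were 10.9, 7.82 and 10.9 FPKM in the RC group and 10.8, 10.7 and 10.6 in the RM group. The rat groups overlapped (log2 fold change 0.10, SE 0.14, adjusted P = 0.63), and the difference was 2.06 (SE 0.13, adjusted P = 5.25e-10).

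Insig1, itself an SREBP target, fell in both species. It had 58.4, 58.8 and 57.4 FPKM in the MC group and 20.5, 20.1 and 21.9 in the MM group (log2 fold change -1.20, SE 0.040, adjusted P = 1.74e-36). In rat it had 97.4, 83.5 and 86.7 FPKM in the RC group and 64.8, 76.6 and 70.8 in the RM group. The rat log2 fold change was -0.35 (SE 0.086, adjusted P = 0.01), lost without RM replicate 1 (adjusted P = 0.056).

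Srebf1 had the widest fall of any member tested in rat and was chosen for a full account after its values were seen. It had 78.0, 93.5 and 79.8 FPKM in the RC group and 18.4, 19.5 and 21.6 in the RM group. Every RM library lay far below the RC libraries, with a log2 fold change of -2.09 (SE 0.093, adjusted P = 1.14e-07), and no other member passed the DEG criteria downwards in rat. In mouse it had 49.5, 49.3 and 49.1 FPKM in the MC group and 30.7, 31.0 and 29.7 in the MM group (log2 fold change -0.41, SE 0.033, adjusted P = 7.85e-18). The difference, 1.64 (SE 0.097, adjusted P = 1.98e-10), was opposite in sign to that of the cholesterol enzymes. Srebf2 did not pass in rat (log2 fold change 0.04, adjusted P = 0.79) and fell by 0.37 on the log2 scale in mouse (SE 0.033, adjusted P = 6.72e-16).

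**Figure D3:**
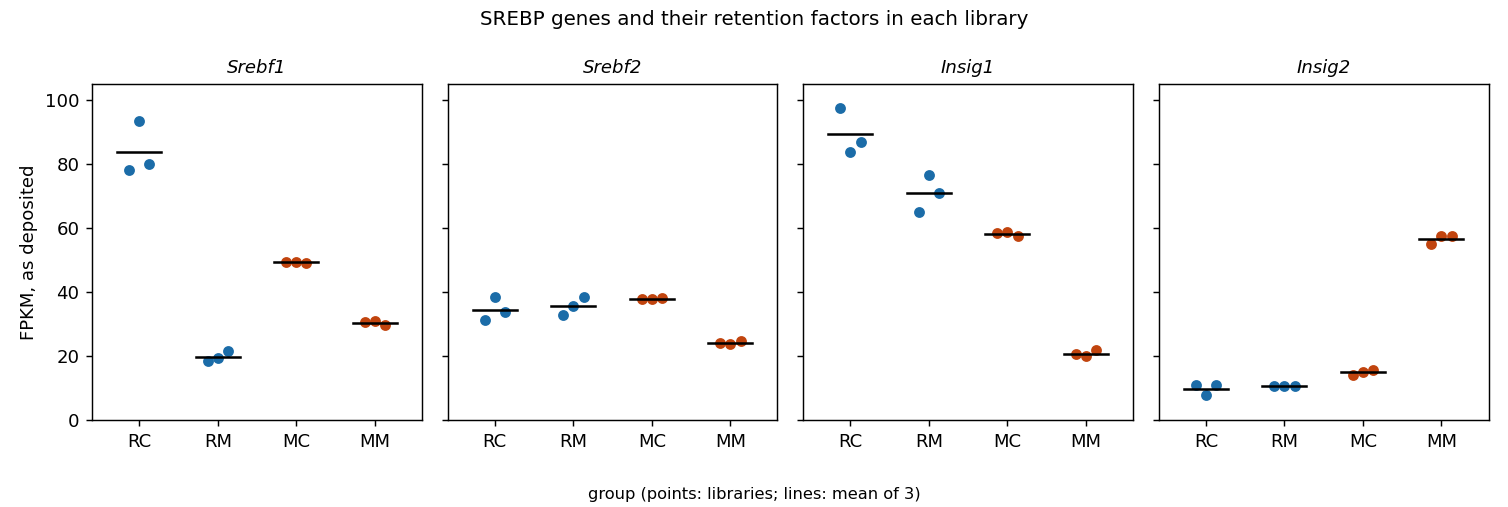
FPKM of Srebf1, Srebf2, Insig1 and Insig2 on a linear axis from 0 for each library of the 4 groups, with lines at the mean of 3 libraries. Srebf1 drops most in rat, from 78.0-93.5 to 18.4-21.6, Insig1 drops most in mouse, and Insig2 rises in mouse from 14.2-15.7 to 55.0-57.6.

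The fatty acid enzymes changed less in step than the cholesterol enzymes. In mouse, Elovl6, Acaca, Fasn and Scd1 fell, whereas Acly (0.12) and Scd2 (0.20) were called higher with TMM scaling and had negative values with library size alone (-0.16 and -0.08). Acly makes cytosolic acetyl-CoA, and Acaca and Fasn build the chain. In rat, Scd2 fell and Acly, Acaca and Fasn were not called, with values from -0.20 to 0.08.

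Elovl6, the elongase of long-chain fatty acids, had 13.3, 14.9 and 15.3 FPKM in the MC group and 2.09, 1.83 and 1.91 in the MM group. It fell by 2.62 on the log2 scale (SE 0.065, adjusted P = 9.98e-44), more than any other member in mouse. In rat it had 8 counts in all RC libraries together and 12 in the RM libraries, too few to pass the filter. Scaled by library totals and TMM factors, the ratio was 1.47, with an exact 95% interval of 0.551 to 4.14 for counting error.

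Fasn, fatty acid synthase, had 40.8, 42.4 and 41.8 FPKM in the MC group and 18.7, 18.6 and 19.9 in the MM group. This gave a log2 fold change of -0.85 (SE 0.031, adjusted P = 4.18e-34), without overlap. Rat libraries had 38.4, 46.0 and 39.6 FPKM in the RC group and 36.1, 36.1 and 37.1 in the RM group. All RM libraries were lower, but the log2 fold change of -0.20 (SE 0.077) did not pass (adjusted P = 0.068). Without RC replicate 1 it did (-0.27, adjusted P = 0.0074).

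Scd2, a stearoyl-CoA desaturase, was the most abundant of the members in FPKM in each group. It had 570, 617 and 567 FPKM in the RC group and 411, 444 and 441 in the RM group. The rat fall was 0.45 on the log2 scale (SE 0.061, adjusted P = 0.00027), without overlap. In mouse it had 286, 289 and 296 FPKM in the MC group and 273, 275 and 276 in the MM group. The deposited FPKM were thus lower in MM, while the TMM-scaled log2 fold change was 0.20 (SE 0.024, adjusted P = 6.07e-11), so that its direction in mouse depends on the scaling.

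Of the LXR and sterol export genes, 3 of 4 were called higher in mouse, beside 37.4% of all mouse genes tested. In rat, 1 was higher and 1 lower, beside 18.3% and 16.8% of all rat genes tested. Abcg1, a sterol exporter and LXR target, had 0.948, 1.21 and 1.42 FPKM in the MC group and 6.58, 6.92 and 7.44 in the MM group. The MM libraries were all well above, with a log2 fold change of 2.82 (SE 0.11, adjusted P = 6.94e-34). In rat it had 0.258, 0.243 and 0.316 FPKM in the RC group and 0.268, 0.169 and 0.268 in the RM group, on 73 and 63 counts. The rat groups overlapped (log2 fold change -0.24, SE 0.30, adjusted P = 0.58). The difference of 3.02 (SE 0.30, adjusted P = 1.54e-07) was the largest positive one.

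Nr1h2, which encodes LXRβ, was called in opposite directions. It had 22.7, 22.0 and 23.1 FPKM in the MC group and 35.9, 34.9 and 36.2 in the MM group (log2 fold change 0.94, SE 0.041, adjusted P = 2.44e-30). Rat libraries had 31.6, 35.5 and 37.1 FPKM in the RC group and 26.8, 27.2 and 30.4 in the RM group. The highest RM library stood just below the lowest RC library, with a log2 fold change of -0.32 (SE 0.086, adjusted P = 0.016). The rat call was lost without RC replicate 3, RM replicate 1 or RM replicate 2, with adjusted P from 0.070 to 0.075.

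Nr1h3, which encodes LXRα, rose in rat (log2 fold change 0.36, adjusted P = 0.033) and was not called in mouse (-0.03, adjusted P = 0.83). The rat call was kept in 1 of the 6 fits without 1 library, that without RC replicate 3. It was also lost with upper quartile scaling. Abca1, the other sterol exporter, was called higher in mouse at 0.31 (adjusted P = 2.98e-08) with TMM scaling, and with library size alone it was at 0.03 (adjusted P = 0.57). In rat it was at -0.17 and not called.

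**Figure D4:**
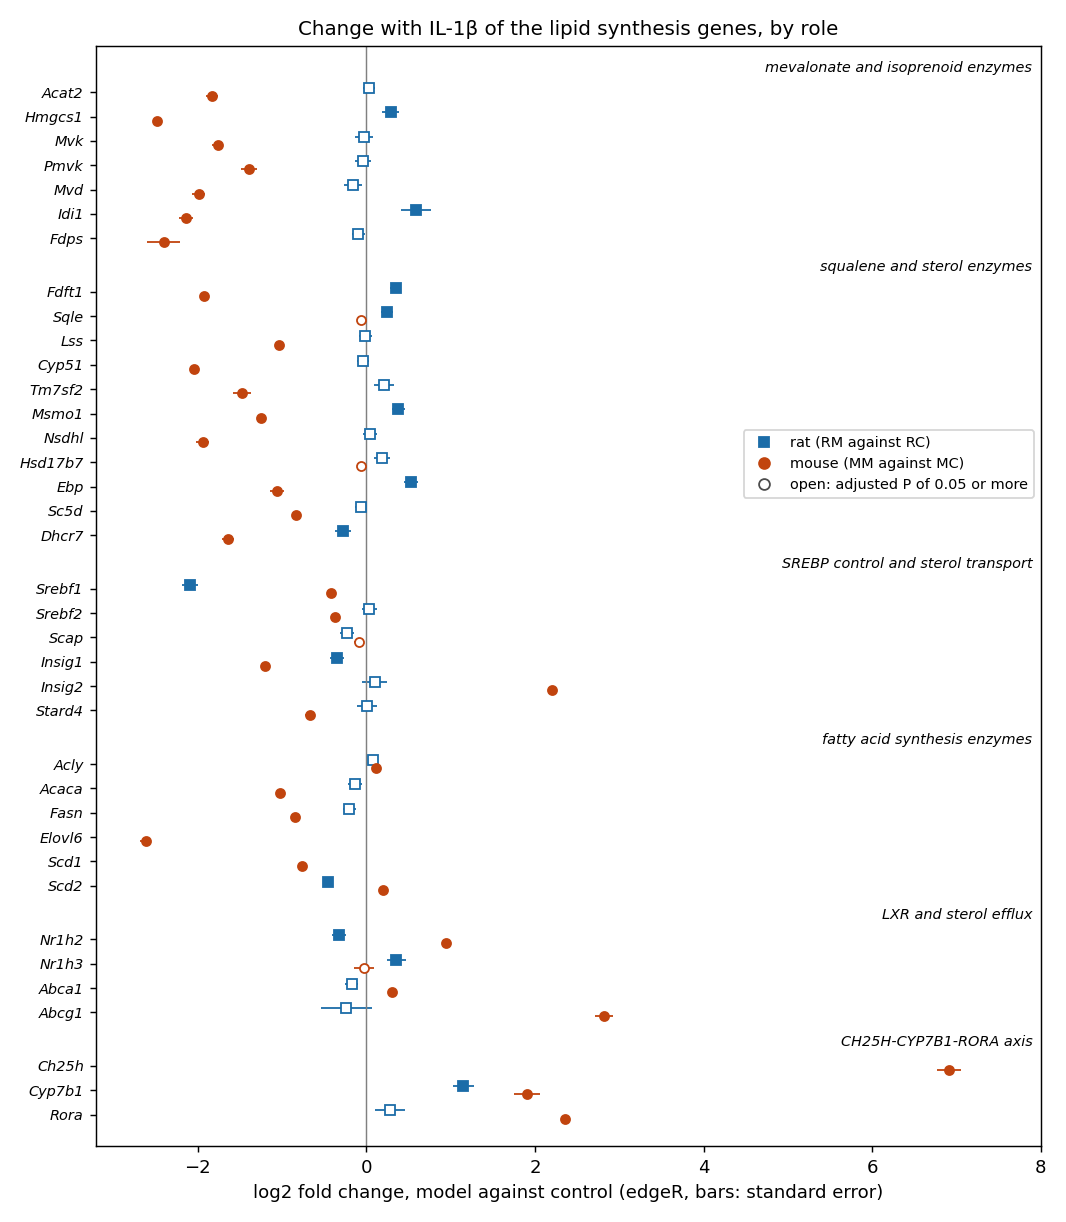
Log2 fold change of each tested member, model against control, in rat (squares) and mouse (circles), grouped by role, with bars of 1 SE and filled symbols for an adjusted P under 0.05. The mouse circles of the cholesterol enzymes lie between -2.48 and -0.06, the rat squares between -0.27 and 0.59, and the axis genes lie at or above 0.28.

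Set side by side, 7 of 34 members were called in opposite directions in the 2 species, beside 12.5% of the 10912 shared genes tested. Hmgcs1, Idi1, Fdft1, Msmo1 and Ebp were higher in RM and lower in MM, as were 7.29% of shared genes. Scd2 and Nr1h2 were lower in RM and higher in MM, as were 5.18%. However, Scd2 was below 0 in mouse with library size alone and in limma on FPKM. The rat calls of Hmgcs1, Idi1 and Nr1h2 were lost in the fits named above. That of Hmgcs1 was also lost with upper quartile scaling and with a replicate block. Fdft1, Msmo1 and Ebp kept their calls in both species in every fit. Dhcr7, Srebf1, Insig1 and Cyp7b1 were called in the same direction in both, beside 19.4% of shared genes, although Dhcr7 and Insig1 in rat were lost in the fits named above. The change did not pass the test of a difference for Scap (0.10, SE 0.098, adjusted P = 0.40) and Acly (-0.0023, SE 0.060, adjusted P = 0.98). With library size alone, Acly differed by -0.26 (adjusted P = 0.0011).

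Around these genes, 75 further names of sterol, oxysterol, LXR and fatty acid metabolism were listed. Of 64 tested in rat, 8 were higher and 20 lower, and of 67 tested in mouse, 25 were higher and 31 lower, beside the 18.3% and 16.8% of all rat genes and the 37.4% and 37.6% of all mouse genes. In mouse, Acat1, a thiolase that forms acetoacetyl-CoA, fell with the mevalonate enzymes (log2 fold change -2.06, adjusted P = 1.66e-41), and in rat it fell by 0.28 on the log2 scale (adjusted P = 0.011, lost without RM replicate 2 or 3). Of the oxysterol and bile acid enzymes, 5 were tested in rat, with 1 higher and 2 lower, and 4 in mouse, with 0 higher and 3 lower. Cyp27a1, which makes 27-hydroxycholesterol and is named after its values were seen, was lower in both (-1.01 in rat, adjusted P = 0.045, and -1.35 in mouse, adjusted P = 3.58e-13). Its rat call was lost in both limma fits and without RC replicate 2 or 3 or RM replicate 1 or 3, with adjusted P up to 0.18. Cyp39a1, an oxysterol hydroxylase, rose in rat (1.06, adjusted P = 0.011) and fell in mouse (-1.81, adjusted P = 1.83e-20). Its FPKM was 0.311 to 0.515 in RC and 0.719 to 1.05 in RM, and 5.51 to 5.64 in MC and 1.11 to 1.63 in MM. Of the REV-ERB receptors, which bind the same DNA sites as RORα, Nr1d2 fell in mouse (-0.77, adjusted P = 3.83e-20) and Nr1d1 was called higher (0.43, adjusted P = 2.54e-06; with library size alone 0.15, adjusted P = 0.081), and neither was called in rat.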

How the data were processed

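RNA-seq libraries were deposited as 1 table per species. Per the submitters' processing notes, HISAT2, HTSeq 0.11.2 and the builds GRCm38 and Rnor_6.0 were used. The annotation release is not stated, and the strand setting is not given in the sources used here. Raw counts per gene, whole numbers without normalization, and FPKM were deposited by the authors. Each of the 79104 rat and 86999 mouse FPKM values checked equalled count over a whole-number gene length and library total within 0.1%. Implied lengths of 96.15% of 11365 mouse genes matched merged exons of GENCODE M21 within 1 base, and mouse coordinates are from it. Among the members, no match was found for Ch25h (1350 against 1387 bases), Abcg1 (4066 against 7298), Tm7sf2 (5593 against 4403), Scd1 and Scd2. The exon overlaps given for these genes are uncertain to that extent.

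Counts were tested in R 4.3.3 with edgeR 4.0.16 (filterByExpr, TMM, quasi-likelihood), each species alone, over all genes. The difference, mouse minus rat, was fitted over genes shared by symbol with scaling within species. P values measure the spread between libraries. An exact permutation test of 3 against 3 could not go below P = 0.1. Alternatives were other scalings, no filter, DESeq2 1.42.0, limma 3.58.1 on log2(FPKM + 1) or (FPKM + 0.1), a replicate block, all groups in 1 fit and leaving out each library. The tests were checked on simulated counts, and 98.5% of 200 changed genes were recovered by edgeR in rat and 100% in mouse. These shares do not cover changes as small as those of the cholesterol enzymes in rat, for which recovery was not tested.

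The members, the other lists and the comparisons were chosen with earlier results of these data known. Values per library are given for the axis genes, for the 2 members per role that had the lowest adjusted P in rat or mouse, and for members called in opposite directions. In the other lists, genes are named by the lowest P of the species difference or by opposite calls. Same-numbered control and model libraries deviated together with r of -0.098 to 0.085 in rat and 0.0012 to 0.015 in mouse, and no label links them, so they were not treated as pairs.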

Additional observations from a re-analysis of the deposited data

Results flagged for a closer look

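The change with IL-1β differed between mouse and rat for 32 of the 34 members tested in both species, by edgeR's test of the difference itself. The values are log2 fold changes in mouse minus those in rat. Of them, 24 were negative and 8 positive, beside 34.2% and 29.7% of the 10912 shared genes tested. No explanation was weighed. Among the mevalonate and isoprenoid enzymes they were Acat2 (-1.90), Hmgcs1 (-2.81), Mvk (-1.77), Pmvk (-1.39), Mvd (-1.87), Idi1 (-2.76) and Fdps (-2.35). Among the squalene and sterol enzymes they were Fdft1 (-2.31), Sqle (-0.34), Lss (-1.06), Cyp51 (-2.05), Tm7sf2 (-1.72), Msmo1 (-1.66), Nsdhl (-2.02), Hsd17b7 (-0.28), Ebp (-1.62), Sc5d (-0.81) and Dhcr7 (-1.40).

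Among the genes of SREBP control and sterol transport the difference was positive for Srebf1 (1.64) and Insig2 (2.06) and negative for Srebf2 (-0.44), Insig1 (-0.89) and Stard4 (-0.72). The fatty acid enzymes gave Acaca (-0.92), Fasn (-0.68) and Scd2 (0.62). The LXR and efflux genes gave Nr1h2 (1.22), Nr1h3 (-0.43), Abca1 (0.44) and Abcg1 (3.02), and the axis gave Cyp7b1 (0.73) and Rora (2.04). The difference of Hsd17b7 did not pass in DESeq2, with a replicate block and without RC replicate 2 or 3, RM replicate 2, MC replicate 1 or 2 or MM replicate 1, with adjusted P up to 0.11. With library size alone, the differences of Abca1 (0.19) and Cyp7b1 (0.47) did not pass, and that of Nr1h3 did not pass without MC replicate 2 (adjusted P = 0.056). Groups of 3 libraries are too small for the test of a library that stands apart.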

How the results depend on the processing

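In mouse, 9 members were higher and 24 lower in every fit without 1 library, and 6 to 9 and 18 to 30 in the other fits. The difference between the species gave 6 to 9 members higher and 22 to 25 lower over all fits, and all 18 cholesterol enzymes kept a negative value. The rat counts were less stable. They were 8 higher and 5 lower, 5 and 8 with upper quartile scaling, 1 and 1 by the DEG criteria, and 4 to 7 and 2 to 9 without 1 library, with 9 lower without RC replicate 1 and 4 higher without RC replicate 2, RM replicate 2 or RM replicate 3. The cause was not tested. With a replicate block, which pairs libraries by number although no label links them, 7 rat members were higher and 5 lower, the rat call of Hmgcs1 (log2 fold change 0.29, adjusted P = 0.053) and the difference of Hsd17b7 (-0.28, adjusted P = 0.056) were lost, and no other member's call was.

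Some values changed sign. In rat, none of the genes concerned was called. With upper quartile scaling, Acat2 was at -0.030, Nsdhl at -0.023, Srebf2 at -0.030 and Stard4 at -0.054. Lss was at 0.0060 with library size alone and at 0.0082 and 0.0086 in limma with a pseudocount of 1 and 0.1. Without 1 library, rat values ran from -0.0048 to 0.057 for Acat2, from -0.094 to 0.030 for Mvk, from -0.10 to 0.046 for Pmvk, from -0.091 to 0.038 for Lss and from -0.10 to 0.018 for Cyp51. They ran from -0.019 to 0.077 for Nsdhl, from -0.048 to 0.12 for Srebf2, from -0.050 to 0.18 for Insig2 and from -0.11 to 0.12 for Stard4. In mouse, Nr1h3 ran from -0.068 to 0.014. Acly in mouse was at -0.16 with library size alone, -0.019 with upper quartile scaling and -0.16 and -0.16 in limma. Scd2 in mouse was at -0.079, -0.078 and -0.078 with library size alone and in both limma fits. The difference of Scap was -0.16 with library size alone, -0.017 with upper quartile scaling and -0.13 and -0.16 in limma. That of Acly was 0.010 with RLE scaling, 0.049 in DESeq2 and -0.017 to 0.016 without 1 library. Library size alone lowers all mouse values relative to TMM, and limma was run on FPKM with that scaling. In rat, Ch25h and Elovl6 had too few counts to pass the filter and were left out of the fit used for calls.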

Other observations

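Of 12 genes of sterol uptake, storage and trafficking, 2 were higher and 2 lower in rat and 7 higher and 4 lower in mouse, beside 18.3%, 16.8%, 37.4% and 37.6% of all genes. The genes named here were taken for the lowest P of the species difference or for opposite calls in their lists. Soat1, which esterifies cholesterol for storage, rose in both, from 35.3-36.5 to 52.7-55.3 FPKM in rat (log2 fold change 0.58, adjusted P = 8.77e-05) and from 7.07-7.36 to 20.6-21.7 in mouse (1.84, adjusted P = 1.11e-47). Vldlr, a lipoprotein receptor, fell in rat from 18.5-22.3 to 13.03-16.3 FPKM (-0.42, adjusted P = 0.01) and rose in mouse from 14.6-15.6 to 51.8-54.4 (2.11, adjusted P = 1.91e-55). Dgat2, which completes triglycerides, rose in mouse from 8.13-8.84 to 36.1-39.0 FPKM (2.40, adjusted P = 1.15e-47) and was not called in rat (-0.17, adjusted P = 0.13). Me1, which supplies NADPH, was lower in rat (-0.42) and higher in mouse (0.81), and the citrate carrier gene Slc25a1 likewise (-0.23 and 0.42), though its rat call was lost with library size alone (adjusted P = 0.057), in both limma fits, with the replicate block and without RC replicate 2 or 3 or any 1 RM replicate. Of 20 further fatty acid and glycerolipid genes, 17 were tested in rat, with 1 higher and 6 lower, and 19 in mouse, with 7 higher and 9 lower. The shares of all genes were those just given.

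Of 10 genes of SREBP processing and sterol-regulated turnover, 3 were higher and 2 lower in rat and 5 higher and 4 lower in mouse, where all genes gave 18.3% and 16.8%, and 37.4% and 37.6%. Erlin1 (0.24 in rat, -0.79 in mouse), Paqr3 (0.58 and -1.15) and Aup1 (-0.27 and 0.25) were called in opposite directions, though Aup1 in mouse was at -0.03 with library size alone (adjusted P = 0.65) and 0.11 with upper quartile scaling (adjusted P = 0.11). The rat calls were lost without RC replicate 2 or 3 or any 1 RM replicate for Erlin1, without RC replicate 3 or RM replicate 2 for Paqr3 and without RM replicate 1 or 2 for Aup1. Upper quartile scaling also ended the rat call of Erlin1 (0.17, adjusted P = 0.086). Rnf145 rose in mouse (1.16). Nus1, which serves dolichol synthesis, rose in mouse (1.44, adjusted P = 1.53e-43) and not in rat (0.01). The phospholipid transfer protein gene Pltp fell in both (-0.79 and -1.69), as did Rxra, the partner of LXR (-0.46 and -0.98). Sult2b1, an oxysterol sulfotransferase, was lower in mouse (-0.93, adjusted P = 0.011) at 0.152 to 0.188 FPKM in MM.

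The rat row named Scd, a desaturase gene for which RefSeq lists Scd1 as a synonym, was not among the members by name. It had 80.2, 85.6 and 76.3 FPKM in the RC group and 56.0, 66.4 and 61.5 in the RM group, and the groups did not overlap.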
